A study of Bos taurus with 18 samples.

Results

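The 50 most abundant transcripts of bovine blastocysts were followed across 18 pools of embryos. The members were chosen by their mean level over all 18 pools in CPM, the count of a gene per 1000000 counts of the pool. Identifiers ENSBTAG00000043544 to ENSBTAG00000043584 were set aside, and the 50 highest of the 27270 genes listed were taken. The levels themselves are therefore a description and carry no test. Of the 41 identifiers in the run set aside, 40 were listed. The members are named here by their rank in mean CPM, from member 1 to member 50, because the table lists Ensembl identifiers and the gene table used here pairs none of them with a symbol. For the same reason no sequence or function could be attached to a member, the blastocyst label was not checked against marker genes, and lists of ribosomal, cytoskeletal, metabolic and lineage genes were not analysed here.

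Oocytes came from follicles of 2 to 4 mm of slaughterhouse ovaries and were matured for 22 h, fertilized and cultured to 8 days post insemination, when 10 embryos were pooled per library. The control group (4 pools) is labelled as untreated and, by the study's methods, received an equal volume of water during maturation. The other pools came from oocytes matured with miR-34c mimics (5 pools), with the negative control (NC) mimic (3 pools), with miR-34c inhibitors (3 pools) or with the NC inhibitor (3 pools). The study's methods describe these agents in the maturation medium only. The labels do not say whether pools of a treatment came from separate collections, and p-values measure the spread between these pools. A pool of 10 embryos does not resolve single embryos or cell types, so that fewer cells of a type and less RNA per cell cannot be told apart.

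A blastocyst holds an outer layer of trophectoderm, which forms the placenta, and an inner cell mass, which forms the fetus. By this stage the embryo transcribes its own genome, and the mRNA left by the oocyte has largely been replaced. In most mammalian cells the most abundant mRNAs encode ribosomal proteins, translation factors, cytoskeletal proteins and enzymes of energy metabolism. Because all genes share the counts of a library, a transcript that takes a larger share leaves less for the rest, and a share is therefore a relative level.

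Library depth ranged from 2063863 to 4071640 counts, and between 13770 and 15491 genes were detected per pool. The lowest count of any member in any pool was 2146, and the spread expected from counting alone had a coefficient of variation (CV, the SD as a percent of the mean) of at most 1.40% for any member. The levels come from libraries of mRNA 5′ ends and are not divided by gene length, so the order of the members is an order of counts and not of level per length. The 40 identifiers set aside held between 6.71% and 13.5% of a pool's counts, with a median of 9.67%.

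The members took 15.2% ± 1.199 (SD, n = 18) of all counts. With TMM-scaled library sizes, which adjust the totals for differences in composition, the same members took 12.0% to 18.1%, against 13.2% to 16.8% on the totals as counted. Their summed share was 13.7%, 16.2%, 16.5% and 15.8% in control replicates 1 to 4. It was 16.1%, 13.5%, 14.7%, 15.8% and 16.6% in miR-34c mimic replicates 1 to 5, and 16.8%, 16.1% and 15.5% in NC mimic replicates 1 to 3. In the miR-34c inhibitor pools it was 13.3%, 15.9% and 14.8%, and in the NC inhibitor pools 13.2%, 14.2% and 14.6%. The pools of every treatment overlapped with those of the others, except that all NC inhibitor pools lay under all NC mimic pools. The lowest shares stood in NC inhibitor replicate 1, miR-34c inhibitor replicate 1, miR-34c mimic replicate 2 and control replicate 1, and in those 4 pools the identifiers set aside took 13.1%, 13.5%, 13.2% and 12.6%. With these identifiers left out of the total, the members took 15.2%, 15.4%, 15.6% and 15.7% in the same 4 pools, which were again the lowest of a range up to 18.1%. The part of the set-aside identifiers in the lower shares was otherwise not tested.

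Member 1 stood well above the rest and was the highest of the genes outside the set-aside run in 18 of 18 pools. Its identifier is ENSBTAG00000014534 and its mean was 10513 CPM. It was at 11263, 9008, 9734 and 9047 CPM in the control pools, at 8427, 11060.1, 7673, 9473 and 9759.9 CPM in the miR-34c mimic pools, at 11157, 10859 and 12106 CPM in the NC mimic pools, at 13899.9, 7865 and 10459.7 CPM in the miR-34c inhibitor pools, and at 12011, 12121 and 13319 CPM in the NC inhibitor pools. All 3 NC inhibitor pools lay above all control and all miR-34c mimic pools, and the miR-34c inhibitor pools spanned nearly the whole range. Member 2 had a mean of 7165 CPM and stayed between 6109 and 7937 CPM. Member 3, with a mean of 6737 CPM, was between 5194 and 8569.5 CPM. In the miR-34c inhibitor pools it was at 8049.8, 5194 and 8569.5 CPM, so that both ends of its range came from a single treatment. Member 5 was at 5508, 3302, 4688 and 3273 CPM in the control pools, at 3620.3, 7715, 3461, 3662 and 3407 CPM in the miR-34c mimic pools, at 5274, 5253 and 6870.0 CPM in the NC mimic pools, at 5417, 2572 and 6459 CPM in the miR-34c inhibitor pools, and at 5778, 5921 and 5861 CPM in the NC inhibitor pools. The NC inhibitor pools were close together, above all control pools. Member 8 was at 2841, 4948, 4601 and 4218 CPM in the control pools, at 4379, 2645, 4071, 4637 and 5131 CPM in the miR-34c mimic pools, at 4221, 4188 and 3649 CPM in the NC mimic pools, at 2094, 4693 and 3244 CPM in the miR-34c inhibitor pools, and at 2566, 2666 and 2962 CPM in the NC inhibitor pools. It was lowest in control replicate 1, miR-34c mimic replicate 2, miR-34c inhibitor replicate 1 and the NC inhibitor pools, followed by miR-34c inhibitor replicate 3. Members 1, 2 and 3 were among the 10 highest genes outside the set-aside run in all 18 pools, and 22 of the 50 members entered those 10 in at least 1 pool.

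**Figure D1:**
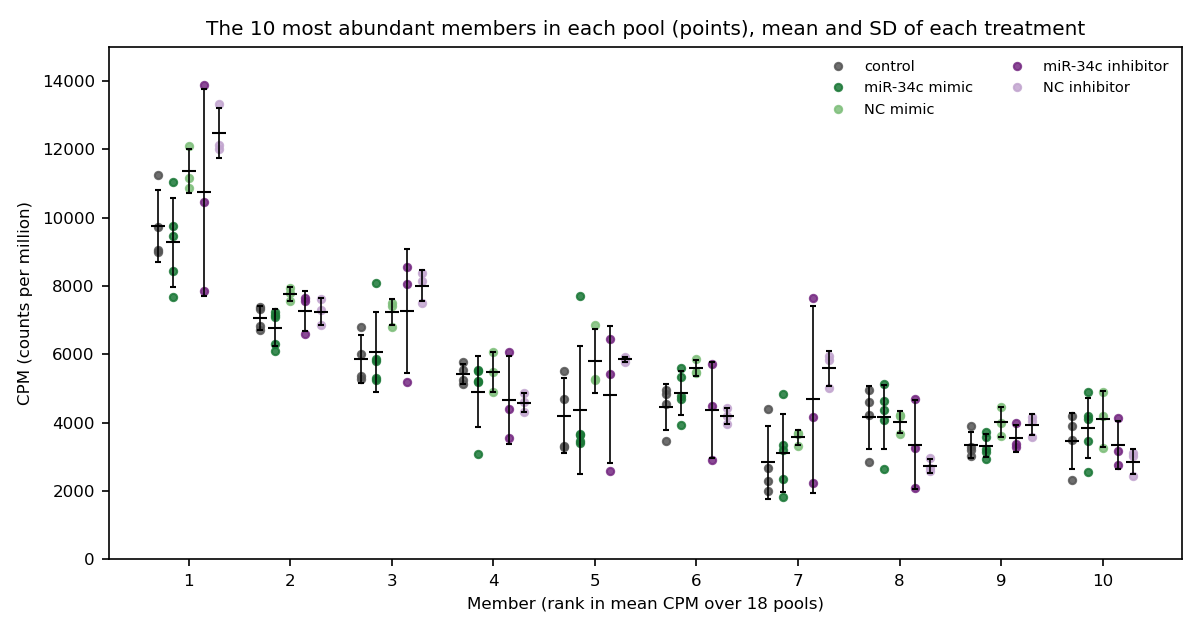
CPM (y axis, linear) of members 1 to 10 (x axis) in each of the 18 pools, coloured by treatment, with horizontal marks for the mean and bars for the SD of each treatment (n = 3 to 5). Member 1 is the highest in every pool, and member 7 ranges from 1825 to 7637 CPM.

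From member 4 on, the levels fell gradually. Members 4 to 10 had means from 5024 down to 3555 CPM, and member 50 had a mean of 1896.4 CPM. The boundary of the list is not a gap, since the gene just outside had a mean of 1896.2 CPM. With the set-aside identifiers removed from the ranking of each pool, 24 of the 50 members were among the 50 highest genes of every pool, and the least constant was so in 8 pools. In the same ranking a pool held between 34 and 47 of the members in its own 50 highest genes, with the lowest number in miR-34c inhibitor replicate 1 and 47 in each NC mimic pool.

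How far the members varied between pools differed between them by several fold. The CV over the 18 pools had a median of 20.6% and ran from 6.81% for member 37 to 41.6% for member 7. For 26 members the highest pool held at least 2 times the CPM of the lowest, and for 5 members less than 1.5 times. The biological coefficient of variation of the edgeR fit, which describes spread within treatments beyond counting error, had a median of 0.240 over the members, from 0.151 for member 2 to 0.362 for member 12. It was 0.254 over the 500 next most abundant genes and 0.265 over all 11082 genes tested. The difference between these medians was not tested.

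The 5 steadiest members were 37, 11, 2, 49 and 14, with CVs of 6.81%, 7.04%, 7.17%, 7.98% and 9.19%. Member 37 was at 2131, 2357, 2381 and 2144 CPM in the control pools, at 2383, 1947, 2450.3, 2167 and 2238 CPM in the miR-34c mimic pools, at 2232, 2108 and 2223 CPM in the NC mimic pools, at 2431, 2105 and 2179 CPM in the miR-34c inhibitor pools, and at 1906, 2209 and 2230.0 CPM in the NC inhibitor pools. No treatment stood apart in CPM for this member, and 10.9% of the variance of its CPM lay between treatments, the lowest value of the 50. On TMM-scaled values all its miR-34c inhibitor pools lay above all its NC inhibitor pools.

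The 5 most variable members were 7, 12, 36, 22 and 43, with CVs of 41.6%, 34.5%, 32.6%, 31.3% and 29.9%. Member 7, ENSBTAG00000008300, was at 4396, 2291, 2669.6 and 1981 CPM in the control pools, at 1825, 4830.1, 3355, 2343 and 3199 CPM in the miR-34c mimic pools, at 3674, 3319.7 and 3692 CPM in the NC mimic pools, at 7637, 2241 and 4168 CPM in the miR-34c inhibitor pools, and at 5009, 5947 and 5820.2 CPM in the NC inhibitor pools. It was high in the NC inhibitor pools, in miR-34c inhibitor replicate 1, in miR-34c mimic replicate 2 and in control replicate 1. In miR-34c inhibitor replicate 3 it was also above its mean of 3800 CPM. It was low in the other control pools, in miR-34c mimic replicates 1 and 4 and in miR-34c inhibitor replicate 2. Its rank among the genes outside the set-aside run was between 3 and 69.

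Member 12 was at 2284, 4286, 4259 and 4270.0 CPM in the control pools, at 4459.6, 1609, 3517, 4268 and 4862 CPM in the miR-34c mimic pools, at 4328, 3993 and 3244 CPM in the NC mimic pools, at 1401, 4714 and 2442 CPM in the miR-34c inhibitor pools, and at 1977, 2202 and 2457 CPM in the NC inhibitor pools. In the 6 pools where member 7 was at 4396 CPM or more, member 12 was at 2457 CPM or less. Member 36, ENSBTAG00000011559, was at 1505, 3069, 2937 and 2868 CPM in the control pools, at 3189, 1376, 2543, 2746 and 3089 CPM in the miR-34c mimic pools, at 2391, 2459.6 and 1999 CPM in the NC mimic pools, at 1047, 2945 and 1797 CPM in the miR-34c inhibitor pools, and at 1341, 1409 and 1547 CPM in the NC inhibitor pools. Its lowest pools were control replicate 1, miR-34c mimic replicate 2, miR-34c inhibitor replicate 1 and the 3 NC inhibitor pools. The next lowest was miR-34c inhibitor replicate 3, at 1797 CPM. Member 22 ran the other way. It was at 3833 CPM in control replicate 1 against 1613 to 2316 CPM in the other control pools. In miR-34c mimic replicate 2 it was at 4432 CPM, against 1824 to 2548 CPM in the other miR-34c mimic pools. It was at 3293, 1866 and 3328 CPM in the miR-34c inhibitor pools and at 3605, 3109 and 3048 CPM in the NC inhibitor pools.

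**Figure D2:**
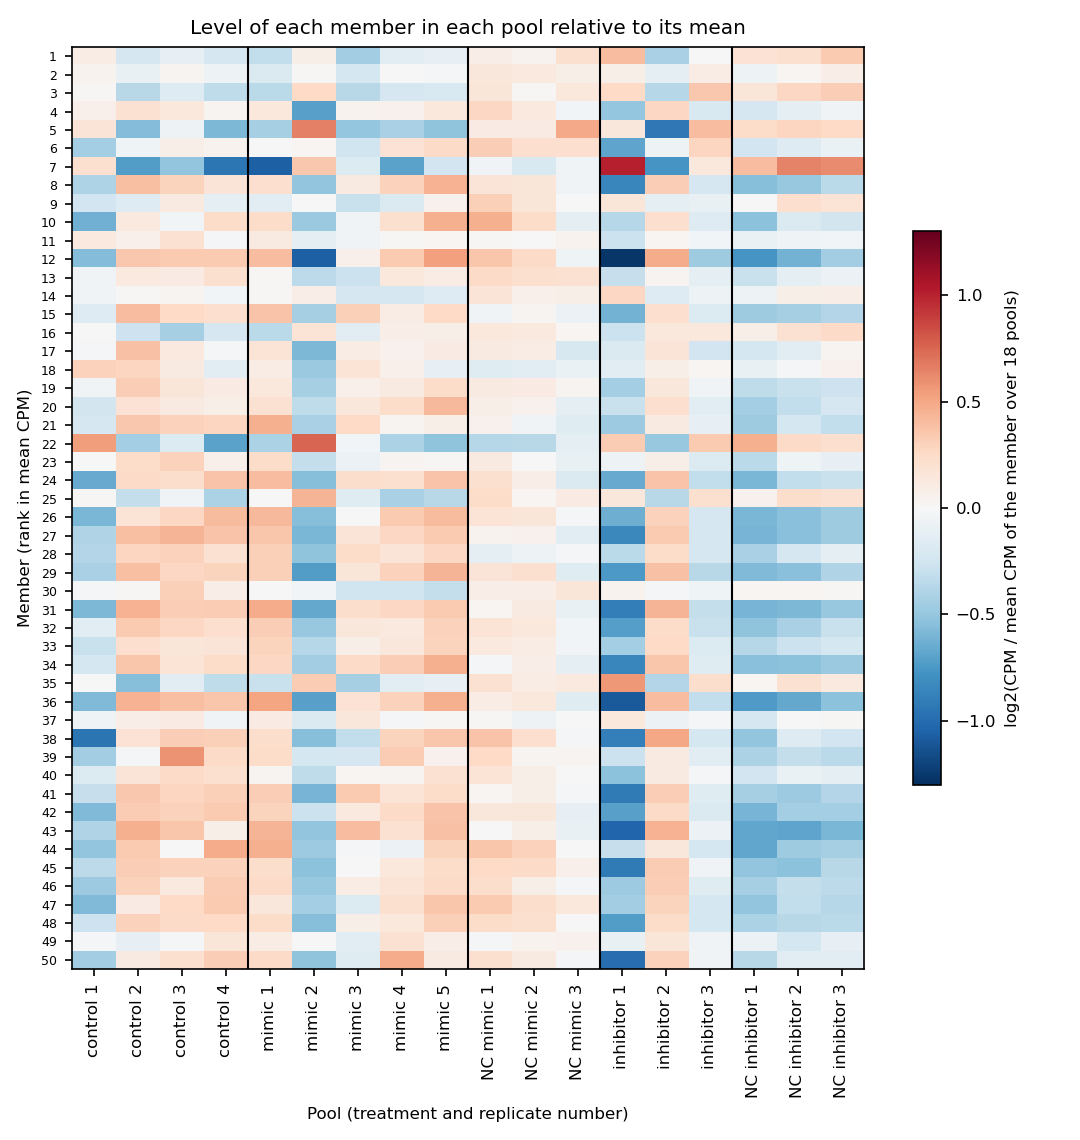
Level of each member (rows, rank 1 to 50) in each pool (columns, by treatment and replicate number) as log2 of its CPM over its mean CPM of the 18 pools, red for higher and blue for lower. Control replicate 1, miR-34c mimic replicate 2, miR-34c inhibitor replicate 1 and the 3 NC inhibitor pools are blue over most of the lower rows, while members 5, 7 and 22 are red in those pools. MiR-34c inhibitor replicate 3 is also below the mean over most of the lower rows and above it for members 5, 7 and 22.

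The spread between pools of the same treatment was wide in 3 groups and narrow in the other 2. The highest pool held a median over the members of 1.48 times the CPM of the lowest in the control group, 1.74 times in the miR-34c mimic group and 1.72 times in the miR-34c inhibitor group. It was 1.15 times in the NC mimic group and 1.13 times in the NC inhibitor group. In every group the lowest values were concentrated in a single pool. Control replicate 1 had the lowest value of its group for 37 of the 50 members, miR-34c mimic replicate 2 for 36, miR-34c inhibitor replicate 1 for 36, NC mimic replicate 3 for 35 and NC inhibitor replicate 1 for 44. The highest values were concentrated in the groups of 3 pools, with 36 members highest in miR-34c inhibitor replicate 2, 33 in NC mimic replicate 1 and 33 in NC inhibitor replicate 3, and less so in the control and miR-34c mimic groups, where a pool was highest for at most 18 and 17 members. Between treatments lay a median of 35.3% of the variance of a member, with a range from 10.9% to 56.8%. These values were not corrected for the number of treatments and pools. Some variance lies between treatments even where treatment has no effect, and how far the values exceed that amount was not estimated.

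The members did not vary as a block. The part of a member in the variation of the summed share was taken as the covariance of its CPM with the sum, divided by the variance of the sum, so that the parts add to 100%. This part was positive for 40 members and negative for 10, and the negative parts summed to -42.3%. The largest negative parts belonged to member 7 (-10.1% ± 2.65, jackknife SE over the 18 pools), member 1 (-8.12% ± 2.83), member 5 (-6.79% ± 2.31), member 22 (-6.07% ± 0.97) and member 3 (-5.93% ± 1.84). The largest positive parts belonged to member 12 (9.09% ± 0.792), member 8 (7.21% ± 0.806), member 10 (5.97% ± 0.815), member 4 (5.48% ± 1.26) and member 36 (5.36% ± 0.703). Members 1, 3, 5, 7 and 22 thus tended to be higher where the 50 together took a smaller share, though not in every pool. In NC mimic replicate 1, which had the largest share, members 1, 3 and 5 were above their means. Members 11 to 50 together accounted for 107% of the variation. With the set-aside identifiers out of the total, 48 of the 50 parts kept their sign, but 12 were negative and summed to -71.6%. The part of member 1 was then -14.1% and that of member 7 -15.1%.

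**Figure D3:**
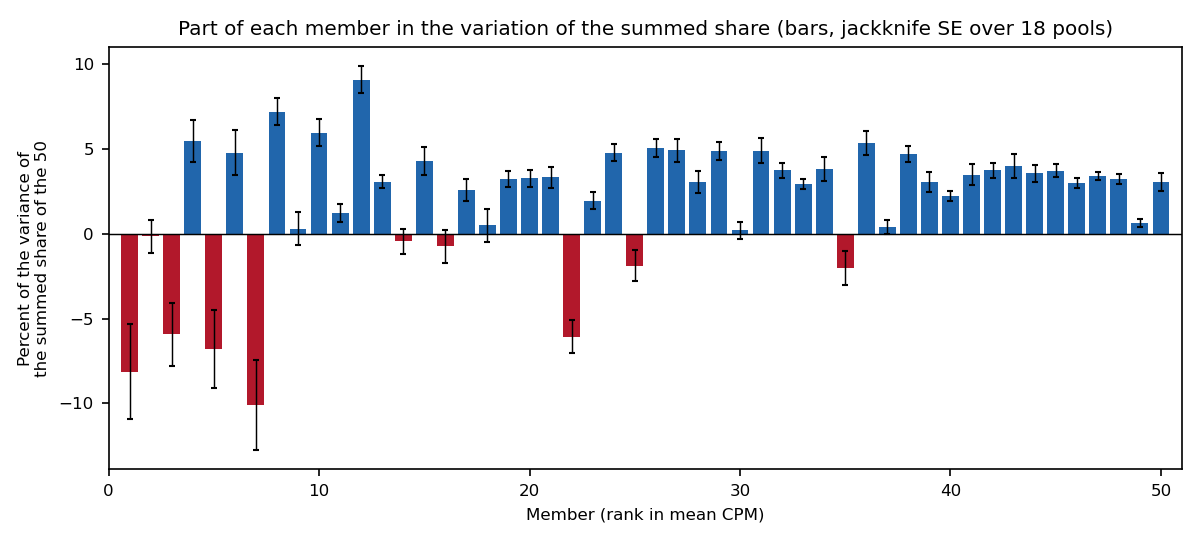
Part of each member (x axis, rank) in the variance of the summed share of the 50 members over the 18 pools, in percent (y axis), with jackknife SE over pools. Member 7 has the largest negative part, at -10.1%, and member 12 the largest positive part, at 9.09%.

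Members 1 to 10 took 5.37% ± 0.487 (SD, n = 18) of all counts. Their share was 5.05% ± 0.233 (SD, n = 4) in the control group, 5.07% ± 0.432 (SD, n = 5) with miR-34c mimics, 5.90% ± 0.189 (SD, n = 3) with the NC mimic, 5.40% ± 0.604 (SD, n = 3) with miR-34c inhibitors and 5.75% ± 0.320 (SD, n = 3) with the NC inhibitor. The pools of both NC groups lay between 5.40% and 6.11%, above all 4 control pools, which lay between 4.82% and 5.28%. This separation depended on the scaling. On TMM-scaled totals the control pools lay between 4.85% and 5.79%, and overlapped with the NC mimic pools (5.67% to 6.04%) and the NC inhibitor pools (4.90% to 5.52%). The variation of this share over the 18 pools came mostly from member 1 with 31.3% ± 4.90 (jackknife SE), member 5 with 22.7% ± 4.16, member 3 with 22.3% ± 2.701 and member 7 with 21.5% ± 6.85. Members 2 and 9 held 9.53% ± 1.11 and 7.38% ± 1.14, and member 8 ran against the sum with -9.66% ± 3.66. The parts of the others were poorly determined. That of member 6 was 3.83% ± 3.73, and between 1.84% and 6.04% without single pools. That of member 4 was -5.75% ± 4.07 (-9.04% to -4.34%), and that of member 10 was -3.19% ± 4.06 (-6.69% to -2.40%), less than 1 SE from 0. With the set-aside identifiers out of the total, members 6 and 10 held 1.21% and -5.89%, and within treatments members 4 and 10 held -11.5% and -5.39%. Without each pool in turn, the part of member 1 stayed between 28.9% and 35.0% and that of member 7 between 18.2% and 25.3%. Members 11 to 50 moved the other way in several pools. They took 7.53% in miR-34c inhibitor replicate 1, where members 1 to 10 took 5.79%, and 11.2% in miR-34c inhibitor replicate 2, where members 1 to 10 took 4.71%.

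The share taken by the 10 highest genes of each pool, counted with the identifiers set aside, ranged more widely, from 7.46% in miR-34c inhibitor replicate 2 to 13.98% in miR-34c inhibitor replicate 1. It was made of set-aside identifiers and members only, with 4 to 7 of the former and 3 to 6 of the latter in each pool. The set-aside identifiers among the 10 took from 3.95% to 10.6% of the counts, and the members among the 10 from 2.42% to 4.38%. The set-aside identifiers held 103% ± 6.50 (jackknife SE) of the variation of this share over the 18 pools, and the members -2.65% ± 6.50. Within treatments the parts were 101% and -0.851%. With 1 fixed set of 10, the highest by mean CPM over all pools, 6 set-aside identifiers held 93.6% and members 1 to 4 held 6.36%, so that the sign of the members' part depended on how the 10 were taken. The varying share of the 10 highest genes thus followed the set-aside identifiers. The amount held by members varied as well, with the lowest value in miR-34c mimic replicate 3 and the highest in NC mimic replicate 1, but its part in the variation of the sum was within 1 SE of 0.

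**Figure D4:**
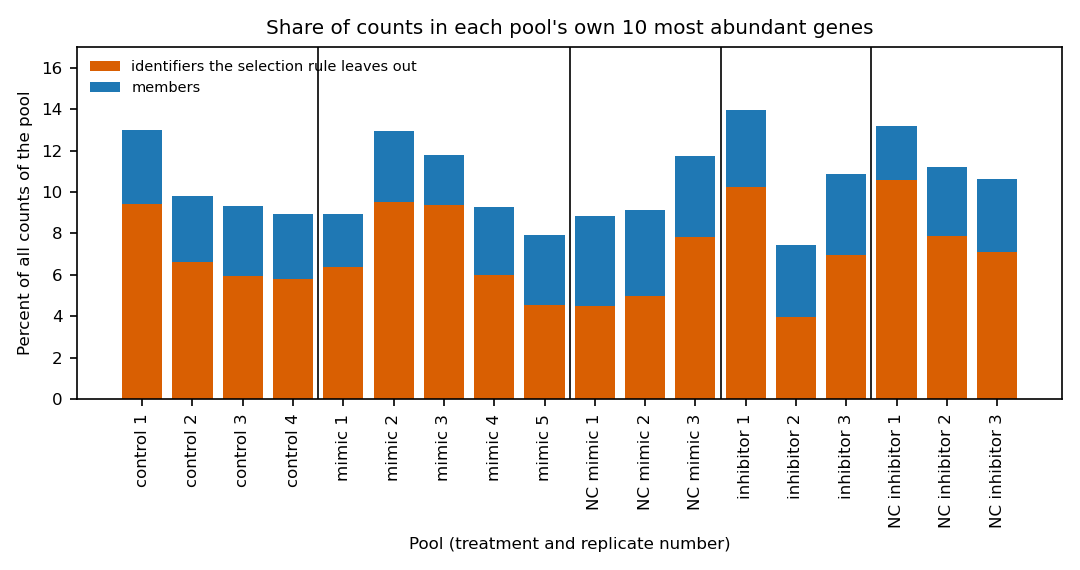
Percent of all counts (y axis, from 0) taken by the 10 most abundant genes of each pool (x axis), split into the identifiers that the selection rule sets aside (orange) and members (blue). The orange part ranges from 3.95% to 10.6% and the blue part from 2.42% to 4.38%.

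Differences between treatments were tested on the counts with edgeR's quasi-likelihood test over 11082 genes, among which all 50 members passed the filter on low counts. A gene counted as differentially expressed (DE) at a Benjamini-Hochberg adjusted p under 0.05 together with a log2 fold change at or beyond 1 in either direction. In each of the 7 comparisons between treatments 0 of the 50 members were DE, and the share of all genes called was 0% as well. In the test for any difference between the 5 treatments, with 4 degrees of freedom, 0 members had an adjusted p under 0.05, against 0.018% of all genes. The lowest adjusted p among the members was 0.410, for member 15. With single pools left out, the adjusted p of member 15 in this test lay between 0.0972 and 0.732. At an unadjusted p under 0.05 this test held 10 of the 50 members, against 12.1% of all genes. They were members 15, 20, 21, 27, 32, 34, 36, 42, 43 and 44, with adjusted p of 0.410 or 0.411. Member 32 was at 2066, 2906.5, 2761.5 and 2659 CPM in the control pools, at 2854, 1633, 2539, 2496 and 2820.4 CPM in the miR-34c mimic pools, at 2592, 2521 and 2228 CPM in the NC mimic pools, at 1399, 2706 and 1879 CPM in the miR-34c inhibitor pools, and at 1595, 1712 and 1873 CPM in the NC inhibitor pools. Member 34 was at 1931, 2899, 2557 and 2666 CPM in the control pools, at 2714, 1649, 2684, 2817 and 3119 CPM in the miR-34c mimic pools, at 2238, 2396 and 2062 CPM in the NC mimic pools, at 1259, 2909 and 2027 CPM in the miR-34c inhibitor pools, and at 1553, 1559.7 and 1612 CPM in the NC inhibitor pools. Both were low in the NC inhibitor pools, in control replicate 1, in miR-34c mimic replicate 2 and in miR-34c inhibitor replicates 1 and 3.

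NC inhibitor against control was the comparison with the most members at an unadjusted p under 0.05. Members were mostly lower, with a median log2 fold change of -0.57 over the 50 members and 0.01 over all genes, and 41 of 50 below 0. No member passed the thresholds, and the adjusted p of the members lay between 0.108 and 0.910. There were 31 such members, 30 of them lower and 1 higher, against 26.7% of all genes. When single pools were left out there were between 19 (without NC inhibitor replicate 1, against 19.5% of all genes) and 38 (without control replicate 1, against 40.3%). The range of the 3 NC inhibitor pools did not overlap with that of the 4 control pools for 14 members that were lower, against 8.06% of all genes, and for 7 members that were higher, against 18.6%. The members that were higher without overlap were 1, 3, 5, 7, 16, 25 and 35. On TMM-scaled values 17 members were lower without overlap (11.5% of all genes), among them the same 14, and 5 were higher (members 1, 3, 5, 7 and 16, against 12.6%).

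Among the members that were lower, member 43, ENSBTAG00000003642, was at 1261, 1254 and 1337 CPM in the NC inhibitor pools and at 1537, 2784, 2595 and 2122 CPM in the control pools. Its log2 fold change was -1.03 ± 0.32 (SE), with an adjusted p of 0.108 in edgeR's quasi-likelihood test. All 3 NC inhibitor pools lay below all control pools, and the nearest control pool was control replicate 1. Member 36 had a log2 fold change of -1.07 ± 0.36 (SE) with an adjusted p of 0.108, and here control replicate 1, at 1505 CPM, lay within the NC inhibitor range. Member 15 was at 2226, 2265 and 2357 CPM against 2733, 4054, 3662 and 3567 CPM, with a log2 fold change of -0.82 ± 0.24 (SE) and an adjusted p of 0.108. Member 27 was at 1642, 1707 and 1805 CPM against 1905, 3275, 3381 and 3215 CPM, with a log2 fold change of -0.99 ± 0.30 (SE). In each of these members control replicate 1 was the lowest of the control pools.

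Member 7 was the one with an unadjusted p under 0.05 in the other direction. Its mean was 5592 ± 509 CPM (SD, n = 3) with the NC inhibitor and 2834.5 ± 1078 CPM (SD, n = 4) in the control group, a log2 fold change of 0.81 ± 0.32 (SE) with an adjusted p of 0.131. Members 1, 3 and 5 had log2 fold changes of 0.17 ± 0.17, 0.27 ± 0.17 and 0.30 ± 0.28 (SE), each less than 2 SE from 0 although the pools did not overlap.

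The number of DE members depended on the tool and on control replicate 1. DESeq2 gave 3 DE members (27, 36 and 43, against 5.16% of all genes), limma voom with sample quality weights 7 (member 7 higher and members 12, 27, 29, 31, 36 and 43 lower, against 19.2%), and edgeR on these groups alone 2 (36 and 43, against 5.57%). In limma voom the test for any treatment held 43 members, against 48.4% of all genes. Without control replicate 1, 12 members were DE between the NC inhibitor and control groups, against 14.2% of all genes, namely members 12, 26, 27, 29, 31, 34, 36, 42, 43, 44 and 45, which were lower, and member 7, which was higher. By the adjusted p alone there were 29 members in that fit, against 21.3% of all genes. Member 36 then had a log2 fold change of -1.29 with an adjusted p of 0.0221 and member 7 one of 1.03 with an adjusted p of 0.0381 (edgeR). The identifiers set aside took 12.6% of the counts of control replicate 1 and from 8.51% to 9.39% in the other control pools, against 9.96% to 13.1% in the NC inhibitor pools, and their part in these differences was not tested.

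**Figure D5:**
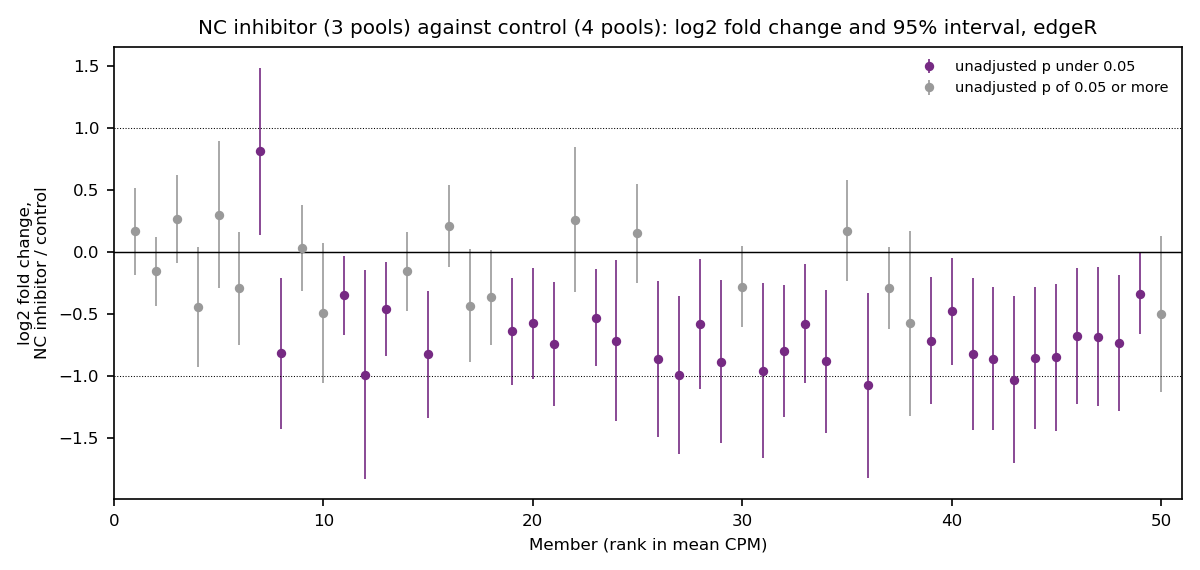
Log2 fold change of NC inhibitor (3 pools) over control (4 pools) for each member (x axis, rank), with 95% intervals from the edgeR fit, purple where the unadjusted p is under 0.05, and dotted lines at a log2 fold change of 1 and -1. Member 7 lies at 0.81 and member 36 at -1.07, and no member has an adjusted p under 0.05.

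For miR-34c itself, mimics against the NC mimic gave 0 members at an unadjusted p under 0.05, against 7.58% of all genes. The log2 fold changes of the members lay between -0.35 and 0.32, with a median of 0.06 and a median SE of 0.23, and the lowest adjusted p was 0.768. Without miR-34c mimic replicate 2 there was 1 member at an unadjusted p under 0.05, against 1617 of 10994 genes. Members 2, 13 and 30 were lower in all 5 miR-34c mimic pools than in all 3 NC mimic pools, against 4.94% of all genes, and 0 members were higher without overlap, against 1.67%. Member 2 was at 6289, 7249.5, 6109, 7155 and 7082 CPM with miR-34c mimics and at 7937, 7799 and 7550.4 CPM with the NC mimic, so that the nearest pools were separated by a small distance. On TMM-scaled values none of these 3 members stood apart, and member 1 alone was lower without overlap, against 3.93% of all genes.

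Inhibitors against the NC inhibitor likewise gave 0 members at an unadjusted p under 0.05, against 4.06% of all genes. Without miR-34c inhibitor replicate 1 there were 14 such members, against 16.7% of all genes. Here 42 of 50 members had a log2 fold change above 0, with a median of 0.32 over the members and 0.03 over all genes, and the lowest adjusted p was 0.842. The miR-34c inhibitor pools were widely spread, and the median SE over the members was 0.26. The log2 fold change of member 43 was 0.69 ± 0.34 (SE), and its pools were at 987, 2754 and 1916 CPM with miR-34c inhibitors and at 1261, 1254 and 1337 CPM with the NC inhibitor. Members 39 and 44 were higher in all miR-34c inhibitor pools than in all NC inhibitor pools, against 2.75% of all genes, and 0 were lower without overlap, against 7.22%. On TMM-scaled values 5 members were higher without overlap (20, 37, 39, 44 and 49, against 5.29% of all genes). When the change with mimics and that with inhibitors, relative to their NC groups, were set against each other in an interaction term, 0 members had an unadjusted p under 0.05, against 3.24% of all genes.

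Against the control group, miR-34c mimics gave 0 members at an unadjusted p under 0.05 (1.44% of all genes) and log2 fold changes between -0.27 and 0.20. The median over the members was -0.02, with 33 of 50 below 0, and it was -0.19, with 43 below 0, without control replicate 1, where the median over all genes was 0.01. No member was higher or lower without overlap, against 0.208% and 0.189% of all genes. The inhibitors gave 0 members (6.75% of all genes), with log2 fold changes between -0.51 and 0.66 and 42 of 50 below 0. The median was -0.29 over the members and 0.00 over all genes, and without control replicate 1 it was -0.45 and 0.02. There were 26 members at an unadjusted p under 0.05 without miR-34c inhibitor replicate 2, against 24.2% of all genes, and 19 without control replicate 1, against 15.9%. The largest fold change was that of member 7, at 0.66 ± 0.32 (SE) with an adjusted p of 0.723 in edgeR's test, and its miR-34c inhibitor pools, between 2241 and 7637 CPM, overlapped with the control pools. No member was higher or lower without overlap, against 2.84% and 1.34% of all genes. The NC mimic gave 0 members (8.05% of all genes), with log2 fold changes between -0.35 and 0.40 and 34 of 50 below 0. The median was -0.10 over the members and -0.01 over all genes. Without control replicate 1, 41 were below 0, with medians of -0.29 and -0.04. There were then 5 members at an unadjusted p under 0.05, against 13.2% of all genes. In that comparison 7 members, namely 2, 3, 6, 14, 16, 25 and 35, were higher in all 3 NC mimic pools than in all control pools, against 8.51% of all genes, and 0 were lower without overlap, against 3.2%. These counts depended on the scaling. On TMM-scaled values 5 members were higher without overlap (1, 3, 5, 16 and 35, against 7.24% of all genes) and 2 were lower (11 and 18, against 4.71%). This comparison shares its 4 control pools with the other comparisons against control. Mimics against inhibitors gave 0 members at an unadjusted p under 0.05 (4.05% of all genes), with log2 fold changes between -0.52 and 0.49 and no member higher or lower without overlap, against 0.424% and 1.2% of all genes. There were 20 members at an unadjusted p under 0.05 without miR-34c inhibitor replicate 2, against 22.8% of all genes, and 10 without miR-34c mimic replicate 2, against 15.2%. In limma voom these comparisons also gave 0 DE members, against 2.92% of all genes for mimics and 1.39% for inhibitors over their NC groups, 8.34% for inhibitors and 2.39% for the NC mimic over the control group, and 7.6% for mimics over inhibitors. Over these comparisons the SE of a member's log2 fold change was between 0.12 and 0.42.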

How the data were processed

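Pools of 10 blastocysts were sequenced as modified Smart-seq3xpress libraries of mRNA 5′ ends. The authors deposited RSEM estimated counts per Ensembl gene and pool, in whole numbers and without normalization. The submitters' processing notes name FastQC 0.11.9, cutadapt 3.7, STAR 2.7.10a, UMI-tools 1.1.4, RSEM 1.3.3 and the build ARS-UCD1.2. RSEM divides reads that match several genes, and genes with near-identical copies are therefore uncertain.

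Shares and CPM were computed over the column totals. Tests used edgeR 4.0.16 in R 4.3.3 (quasi-likelihood, TMM, filterByExpr by treatment, all 18 pools in a single fit, Benjamini-Hochberg over 11082 genes). Alternatives were DESeq2 1.42.0, limma-voom 3.58.1 using quality weights per sample, DESeq2 size factors, other filters, the replicate number as a block, the 2 compared groups alone, the adjusted p alone, other totals and averages, TMM-scaled ranges (added after seeing the data), and leaving out each pool. Scripts were tested on simulated data. All 25 pairs of pools of a treatment differed by more than the sampling noise (chi-square over its degrees of freedom between 2.31 and 61.3), so no pool was merged with another.

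The members and lists were chosen with earlier results of these data known. Members described singly were the 10 highest in mean CPM, the 10 with the largest part in the variation of the summed share, the 5 with the highest and the 5 with the lowest CV, and 10 by adjusted p for any treatment, where 11 members were tied at 0.411 and the tie was broken by the unadjusted p, a choice made after the values were seen. Others were named by count, after their values were seen. For a gene with no count in a pool up to 3 counts are possible, for counting error alone.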

Additional observations from a re-analysis of the deposited data

Results flagged for a closer look

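In the control and miR-34c mimic groups, which hold 4 and 5 pools, 110 combinations of a group with a member or a summed share were examined for a pool set apart from the others, with its gap to the nearest other pool above Dixon's 95% critical value of the range of the group. Chance sets apart about 1 in 20 such combinations, and members that vary together are not independent. There were 22, all of them in control replicate 1 or miR-34c mimic replicate 2. The rule was applied to members and summed shares only. Whether other genes were set apart as often in these pools was not tested, so the count is not particular to the members.

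Control replicate 1 lay below the other 3 control pools in member 12 (2284 CPM), 21 (2291 CPM), 27 (1905 CPM), 31 (1545 CPM), 33 (1862 CPM), 36 (1505 CPM), 38 (1129 CPM), 41 (1701 CPM), 42 (1399 CPM), 45 (1563 CPM) and 48 (1593 CPM). The share of members 11 to 50 in this pool was 8.52%, against 10.9% to 11.3% in the other control pools. The largest gap relative to the range was that of member 12, at 0.987, where the other control pools lay between 4259 and 4286 CPM.

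MiR-34c mimic replicate 2 lay above the other 4 mimic pools in member 3 (8089 CPM), 5 (7715 CPM) and 22 (4432 CPM). It lay below them in member 4 (3084 CPM), 17 (1998 CPM), 24 (1743 CPM), 27 (1647 CPM), 28 (1717 CPM), 41 (1377 CPM) and 46 (1386 CPM). Members 27 and 41 were set apart in both pools. The largest gap was that of member 5, at 0.941, where the other mimic pools lay between 3407 and 3662 CPM. The identifiers set aside took 12.6% of the counts of control replicate 1 and 13.2% of those of miR-34c mimic replicate 2, and what these pools have in common was not tested.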

How the results depend on the processing

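The alternatives gave 132 combinations of a comparison and a setting, many of which share a fit. Of these combinations, 127 gave 0 DE members. In 92 of these no gene was called, and in 35 other genes were, up to 8.34% of all genes in limma voom for inhibitors against control. The exceptions were NC inhibitor against control, with 3 members in DESeq2, 7 in limma voom with sample quality weights, 2 with the 2 groups alone and from 0 to 12 when single pools were left out (12 without control replicate 1), and the test for any treatment, with 43 members in limma voom against 48.4% of all genes. For NC inhibitor against control the shares of all genes called were 5.16%, 19.2%, 5.57% and 14.2%. The cause was not tested. With the replicate number as a block 0 members were DE in each comparison. Whether pools with the same replicate number were paired is not settled. Their deviations from the group means had a median correlation of -0.05 over 31 pairs, 11 of them above 0.1. The labels do not say whether a shared number marks a shared collection. Leaving out a pool kept 48 to 50 of the members, with a mean share of 15.1% to 15.3% for the 50 and of 5.33% to 5.42% for the first 10. With the set-aside identifiers out of the total these shares were 16.8% and 5.97%, since the total is smaller. Scaling by TMM, an alternative chosen after seeing the data, moved the numbers of members without overlap. For mimics against the NC mimic the number moved to 1 lower, against 3.93% of all genes. For inhibitors against the NC inhibitor it moved to 5 higher, against 5.29%. For the NC mimic against control it moved to 2 lower, against 4.71%. Each treatment had 3 to 5 pools. The spread of a member expected from counting alone had a CV of at most 1.40%, against CVs over the pools from 6.81% to 41.6%. Whether more pools or more depth would change the numbers of DE members was not tested.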
